A study of Caenorhabditis elegans with 2 samples.

Results

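In the nematode Caenorhabditis elegans, binding of the C2H2 zinc finger protein PQM-1 was examined around 8 genes of the response to low oxygen and to hydrogen sulfide, hif-1, egl-9, vhl-1, rhy-1, cysl-1, cysl-2, sqrd-1 and ethe-1, out of 19973 nuclear protein-coding genes. The genes were chosen by name for their place in this pathway, and all 8 were found in the annotation. For each gene, every peak summit from 5000 bp upstream of the gene to 2000 bp downstream of it was taken, gene body included, with the signal value that the authors gave the peak. The data came from chromatin immunoprecipitation and sequencing of an eGFP-tagged PQM-1 in whole L3 larvae, with 2 biological replicates of 1 group. The worms were of strain OP201, genotype unc-119(tm4063) III; wgIs201, with the sexes pooled, and the labels name no low oxygen or sulfide treatment and no second condition. Both replicates carry the unc-119(tm4063) allele and the same transgene insertion, so the peaks are those of the tagged product in this genotype. In whole larvae a weak peak in many cells and a strong peak in few cells cannot be told apart.

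Peak lists on the ce11 build were read. Each replicate had a relaxed list, and both together had another (the pooled list). The authors' optimal list is labelled as thresholded by the irreproducible discovery rate, a measure of reproducibility. It is not a list of peaks seen in each replicate, since 5192 of its 5560 peaks overlapped a peak in both replicate lists. The optimal list held 5560 peaks, the pooled list 30000, and the lists of replicates 1 and 2 held 26022 and 30000. The depth is unknown, since such lists hold no reads. The signal is a score whose scale is not stated, and values and ranks are read only within a list. A summit distance below 0 is upstream of the 5′ end of the named gene, and a promoter runs from 1000 bp upstream to 250 bp downstream of that end.

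In animals, HIF transcription factors drive the response to low oxygen. With oxygen present, the prolyl hydroxylase EGL-9 marks HIF-1, the von Hippel-Lindau protein VHL-1 binds the marked protein, and HIF-1 is degraded. In C. elegans, hydrogen sulfide acts on the same pathway through CYSL-1, a relative of cysteine synthases that binds and inhibits EGL-9, and through RHY-1, a membrane protein that keeps CYSL-1 in check. HIF-1 then raises the expression of enzymes that remove sulfide and cyanide, and of its own inhibitors, with egl-9, rhy-1, cysl-2 and sqrd-1 among its known targets in this animal.

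The sequences around the summits that the results below turn on are printed first. Each is the 101 bp centred on an optimal summit, written 5′ to 3′ in the direction of the named gene, from the RefSeq copy of WBcel235, which is the same assembly as ce11. Capitals mark, on either strand, TGATAAG (the DAF-16-associated element, a sequence linked with PQM-1), its shorter form TGATAA, and ACGTG or GCGTG (the core of the hypoxia response element, to which HIF-1 binds). The first 6 hold such elements, and the last 2, the strongest summits of hif-1 and cysl-2, hold none.

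egl-9 distal, chrV:10466688-10466788, plus strand: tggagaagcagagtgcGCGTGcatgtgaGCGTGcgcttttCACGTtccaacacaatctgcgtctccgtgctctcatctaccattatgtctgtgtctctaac

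egl-9 proximal, chrV:10468385-10468485, plus strand: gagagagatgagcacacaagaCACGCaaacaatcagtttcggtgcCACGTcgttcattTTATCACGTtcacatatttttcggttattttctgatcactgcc

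rhy-1 promoter, chrII:9160386-9160486, plus strand: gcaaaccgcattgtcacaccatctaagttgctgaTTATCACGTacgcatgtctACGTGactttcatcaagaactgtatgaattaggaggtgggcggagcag

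cysl-2 proximal, chrII:14494582-14494682, minus strand: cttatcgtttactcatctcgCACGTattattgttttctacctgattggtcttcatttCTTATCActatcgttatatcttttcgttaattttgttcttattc

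sqrd-1 promoter, chrIV:14219763-14219863, plus strand: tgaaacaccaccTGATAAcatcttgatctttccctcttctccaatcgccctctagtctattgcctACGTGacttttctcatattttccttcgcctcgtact

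rhy-1 distal, chrII:9157315-9157415, plus strand: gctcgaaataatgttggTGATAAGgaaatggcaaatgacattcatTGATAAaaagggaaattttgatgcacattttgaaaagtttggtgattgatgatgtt

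hif-1 strongest, chrV:20778411-20778511, plus strand: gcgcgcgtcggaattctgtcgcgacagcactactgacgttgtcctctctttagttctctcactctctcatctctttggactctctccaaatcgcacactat

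cysl-2 strongest, chrII:14495493-14495593, minus strand: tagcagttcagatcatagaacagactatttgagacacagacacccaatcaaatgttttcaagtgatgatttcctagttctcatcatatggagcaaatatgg

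PQM-1 peaks with the named gene as their nearest protein-coding gene were found upstream of hif-1, egl-9, rhy-1, cysl-2 and sqrd-1. Of the 8 genes, 7 had at least 1 optimal summit in their window, against 40.2% of all protein-coding genes, and 4 (egl-9, rhy-1, cysl-2 and sqrd-1) had 1 in the promoter, against 16.3%. The windows held 16 optimal summits, a median of 2.5 per gene against 0 over all genes. At least 3 summits were found for 4 of the 8 genes and for 5.23% of all genes. The median window was 9013 bp for the 8 genes and 9027 bp for all genes. Per 10 kb the density of summits was 1.94 in the windows of the 8 genes and 0.620 in the windows of all genes. The strongest 1000 optimal peaks gave 4 of the 8 genes a window summit, against 9.73% of all genes. For rhy-1 and cysl-1 that summit lay nearer to oac-54 and to ZC506.1. Taken alone, the 5560 strongest peaks of replicate 1 and those of replicate 2 each reached the windows of 7 of the 8 genes, against 40.6% and 38.8% of all genes. The genes were chosen with such results known, so these counts are a description.

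Only 8 of the 16 summits had the named gene as their nearest protein-coding gene. These 8 belonged to hif-1 (2), egl-9 (2), cysl-2 (2), rhy-1 (1) and sqrd-1 (1), and all lay upstream of the 5′ end. Counted in this way, 5 of the 8 genes had a summit of their own, against 19.7% of all genes. None of the 8 genes had 3 or more such summits, against 1.23% of all genes. The optimal summits in the windows of cysl-1 and ethe-1 were all nearer to other genes, and vhl-1 had no optimal summit.

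**Figure D1:**
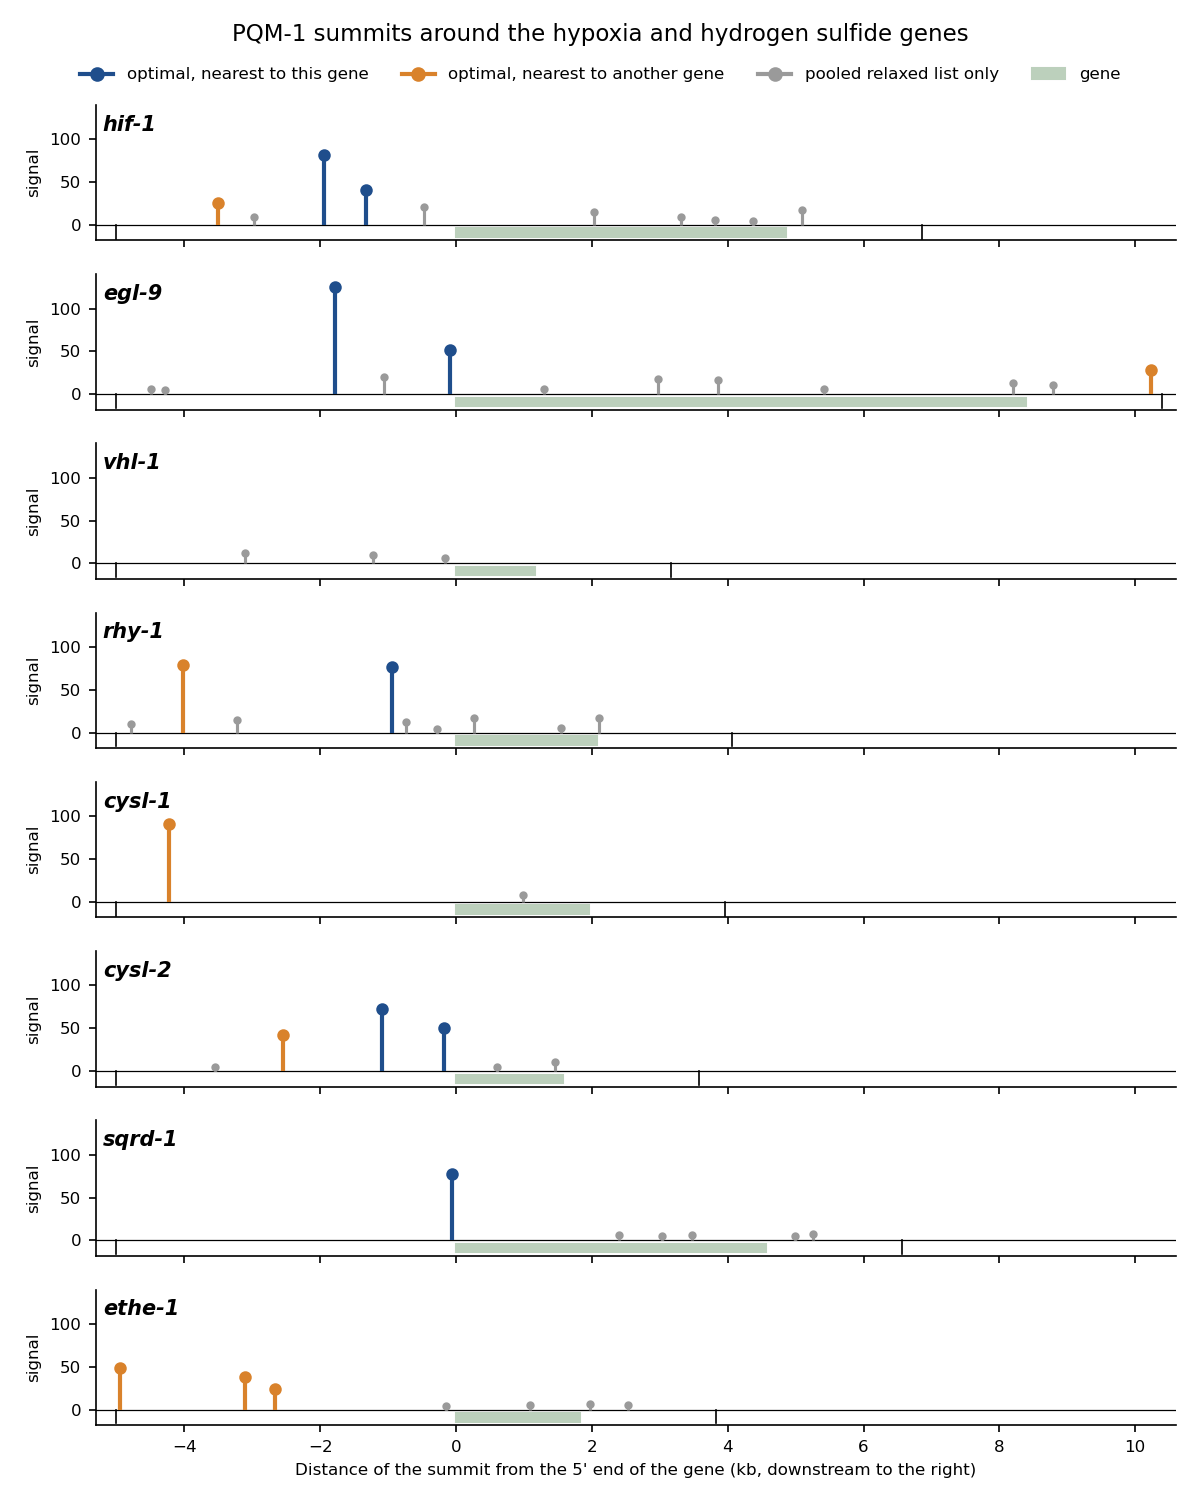
Signal of each summit (vertical axis, the authors' score) against its distance from the 5′ end of the gene in kb (horizontal axis) for the 8 genes. Blue and orange mark the 16 optimal summits by whether the named gene or another gene is nearest, grey marks summits of the pooled list alone, the green bar is the gene and short black lines below the axis end each window. The 8 blue summits all stand upstream of their gene, and the highest is that of egl-9 at 125.

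The transcription factor gene hif-1 (WBGene00001851, chromosome V, 20780407 to 20785260, plus strand) had 3 optimal summits upstream and none in its promoter or body. The strongest lay at -1946 bp with a signal of 82.1, rank 867, in intergenic sequence. It had a signal of 72.6 in replicate 1 (rank 564) and 12.9 in replicate 2 (rank 2645), with the replicate summits 44 and 99 bp from it. The next, at -1320 bp, had a signal of 41.4 and held TGATAAG, centred at -33 bp from the summit. In replicate 1 it ranked 2347, and in replicate 2 the strongest overlapping peak ranked 2583 with its summit 274 bp away. Another replicate 2 peak over it, with a nearer summit at -1391 bp, had a signal of 6.61 and ranked 7646. The summit farthest upstream, at -3504 bp, was weak (25.7, rank 5197) and lay nearer to F38A6.4. No other protein-coding gene reached into this window. The promoter itself held a peak of the pooled list at -467 bp with a signal of 21.5, rank 6076, short of the optimal list, whose lowest signal is 23.8. Each replicate on its own placed a promoter peak among its 5560 strongest, replicate 1 at -502 bp (rank 5292) and replicate 2 at -283 bp (rank 3443). Within the gene body the pooled list had 4 further summits, the strongest at 2027 bp with a signal of 15.5.

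The oxygen sensor gene egl-9 (WBGene00001178, chromosome V, 10468517 to 10476915, plus strand) carried the strongest of the 16 peaks. This peak, 89 bp wide and centred at -1779 bp, had a signal of 125 and ranked 233. It ranked 318 in replicate 1 (signal 87.4) and 162 in replicate 2 (signal 39.2), with the replicate summits 0 and 18 bp away. Both replicates thus placed it within their strongest 1000. The summit lay in exons of the noncoding RNA genes F22E12.9 and F22E12.10, and it held 2 copies of GCGTG and 1 of ACGTG but no TGATAA. The proximal peak, at -82 bp, had a signal of 51.8, rank 2130. In replicate 1 it ranked 1831 (signal 42.3) and in replicate 2 5725 (signal 7.85), so that replicate 2 left it just outside its strongest 5560. Another weak summit in the window, at 10225 bp (28.3), lay beyond the 3′ end at the start of crp-1 and of Y32F6B.9. Between the upstream peaks the pooled list had a summit at -1067 bp with a signal of 20.6 (rank 6307), and inside the gene 5 weaker ones, up to 17.6 at 2969 bp.

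The ubiquitin ligase gene vhl-1 (WBGene00006922, chromosome X, 11307356 to 11308518, plus strand) was the only gene of the 8 with no optimal summit, in a window of 8163 bp. The pooled list had 3 summits there, at -3111 bp (12.3, rank 9480), -1225 bp (10.05) and -155 bp (5.95, rank 20119). The promoter summit at -155 bp had a counterpart in the list of replicate 2 (2.87, rank 27010) and no summit in the promoter in that of replicate 1. A pooled summit was in the window of all 8 genes (88.2% of all genes) and in the promoter of 7 (45.1% of all genes).

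The regulator gene rhy-1 (WBGene00012324, chromosome II, 9161379 to 9163448, plus strand) had a promoter summit at -943 bp with a signal of 76.6, rank 1022. In replicate 1 it ranked 630 with a signal of 70.2 and a summit 6 bp away. Replicate 2 had 2 weak peaks over it, the stronger with a signal of 5.89, rank 9413, and a summit 182 bp away. A narrower optimal peak at -4014 bp (79.3, rank 945) was placed alike by both replicates, at ranks 1083 and 1043 and within 4 bp. That summit lay at -746 bp from oac-54, an acyltransferase-like gene of the same strand between it and rhy-1. It held TGATAAG and, nearer to the summit, TGATAA.

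The sulfide sensor gene cysl-1 (WBGene00007653, chromosome X, 9952579 to 9954533, minus strand) had no summit in its promoter in the optimal or the pooled list. The only optimal summit in its window, at -4226 bp, had a signal of 91.3 (rank 659), and the replicates placed it at ranks 607 and 515 with summits 5 bp away. It lay at -201 bp from ZC506.1, which is read in the opposite direction, and so in that gene's promoter. Nearer to cysl-1 the pooled list had 1 summit, inside the gene at 986 bp (8.26, rank 13837). Replicate 2 alone had a weak promoter summit at -351 bp (3.90, rank 18467).

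The enzyme gene cysl-2 (WBGene00010759, chromosome II, 14492874 to 14494451, minus strand), whose product uses cysteine and cyanide, had 3 optimal summits upstream. The strongest was at -1092 bp, just outside the promoter as defined here, with a signal of 72.8, rank 1151. It ranked 1405 in replicate 1 (signal 49.03) and 781 in replicate 2 (signal 24.2), and the summit of replicate 2 was 5 bp away. The promoter summit at -181 bp had a signal of 50.01 (rank 2241), and it ranked 1849 in replicate 1 and 4847 in replicate 2, whose summit was 4 bp away. Both replicates had these 2 peaks among their 5560 strongest. The summit at -2544 bp (42.0, rank 2949) lay in an exon of the noncoding RNA gene K10H10.14 and nearer to dhs-8, which is read away from cysl-2. Per 10 kb of window cysl-2 had the highest density of optimal summits of the 8 genes, at 3.50.

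The mitochondrial enzyme gene sqrd-1 (WBGene00008538, chromosome IV, 14219871 to 14224440, plus strand), which encodes the sulfide quinone oxidoreductase that begins sulfide breakdown, had 1 optimal summit and no other strong one. It stood at -58 bp, directly at the gene start, with a signal of 77.1, rank 1004. In replicate 1 it ranked 522 (signal 74.2) with the summit 16 bp away. In replicate 2 the overlapping peak ranked 3509 (signal 10.7) and its summit was 241 bp away, inside the gene at 183 bp. The other 5 pooled summits of the window had signals of 7.31 or less.

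The other sulfide breakdown gene, ethe-1 (WBGene00007886, chromosome IV, 9506936 to 9508761, minus strand), which encodes a mitochondrial persulfide dioxygenase, had 3 optimal summits in its window and none of its own. Those at -2658 and -3105 bp lay in an intron of the neighbouring gene C33A12.3, the first of them also in the small nucleolar RNA gene smy-2, and that at -4940 bp (48.2, rank 2381) lay at -699 bp from C33A12.3. The gene nearest to the first was C33A12.4. The summit at -2658 bp was the weakest of the 16, with a signal of 23.9 at rank 5541 of 5560. It overlapped no peak of replicate 1, while replicate 2 had a peak there with a signal of 19.9, rank 1251. In its own promoter ethe-1 had a pooled summit at -144 bp (4.72, rank 25857), and replicate 1 had a summit there of 10.4, rank 8218.

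The replicates were next compared over all 16 summits. Of these, 15 overlapped a peak in each replicate list (93.8%, against 93.4% of the whole optimal list). With only the 5560 strongest peaks of each replicate, 9 overlapped in both (56.3%, against 64.8% of the whole list). The hif-1 summit at -1320 bp is among these 9 through a replicate 2 peak whose summit was 274 bp away. Replicate 1 had 15 of the 16 among its strongest, and replicate 2 had 10. The median rank of the 16 was 1736 in replicate 1 (over 15) and 3936 in replicate 2, where the whole optimal list had medians of 2757 and 2691. Of the 15 seen in both, 11 ranked lower in replicate 2 than in replicate 1 (73.3%, against 55.5% of the whole list). The lists differ in length, so a difference between ranks of 1 peak is no measure of change.

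**Figure D2:**
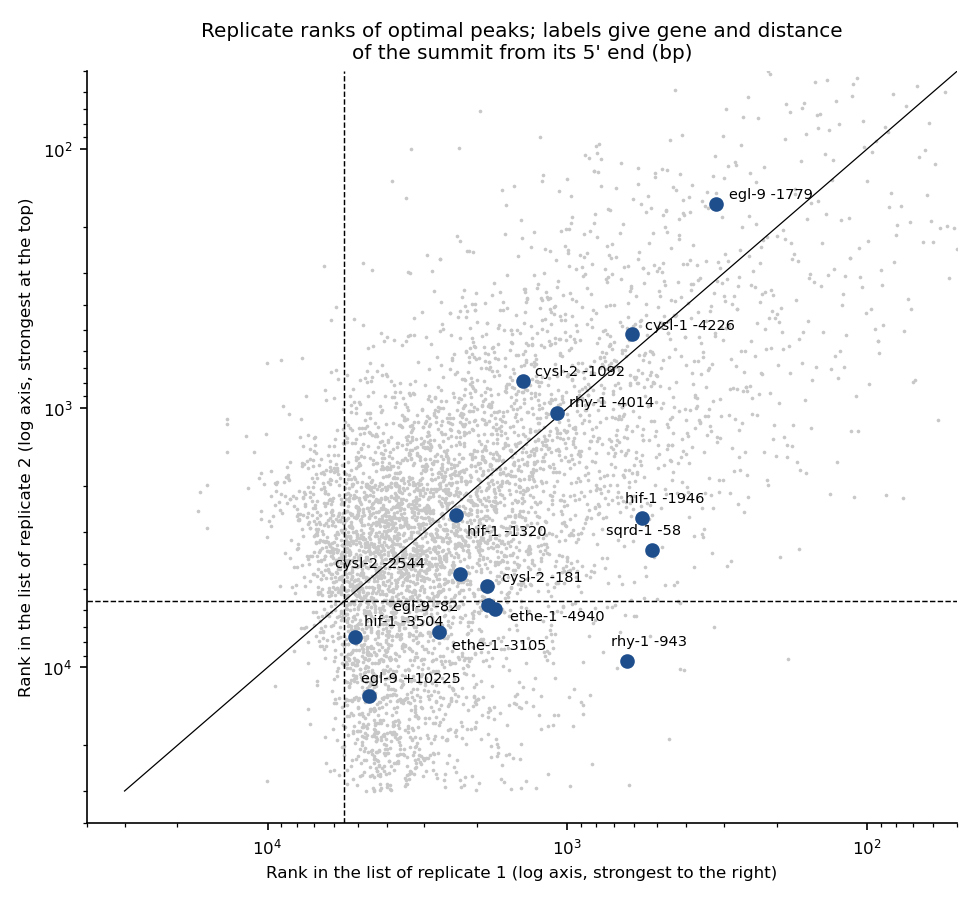
Rank of each optimal peak in replicate 1 (horizontal) and in replicate 2 (vertical), both on log axes with the strongest at the right and at the top. Grey points are the 5192 optimal peaks seen in both replicates (those above rank 50 fall outside the axes), blue points the 15 near the 8 genes, dashed lines mark rank 5560 and the solid line marks equal ranks. The distal peak of egl-9 stands high in both, and the promoter peak of rhy-1 at ranks 630 and 9413 lies far from the line.

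The sequence under the peaks was read next. All 4 promoter summits (egl-9 at -82 bp, rhy-1, cysl-2 and sqrd-1) held both ACGTG and TGATAA within 50 bp. Over all 2753 optimal summits in promoters, 15.0% held ACGTG and 39.4% held TGATAA. No share that held both is given, so the joint count has no value beside it. Of the 12 other summits in the windows, 1 held ACGTG and 2 held TGATAA. Counts of the other elements were closer, with GCGTG at 1 of the 4 and 3 of the 12 and TGATAAG at 1 of the 4 and 2 of the 12. With so few summits no difference was tested. These 4 genes are known targets of HIF-1, so the presence of its core sequence at their promoters is not independent of how they were chosen, and the split by promoter was made after the sequences were seen. The match says nothing of HIF-1 in these larvae, which was not measured.

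The full TGATAAG was at 3 of the 16 summits, those of cysl-2 at -181 bp, hif-1 at -1320 bp and rhy-1 at -4014 bp. Over all 5560 optimal summits it was at 23.9%, and in windows 500 bp away toward lower coordinates at 2.27%. TGATAA, which TGATAAG contains, was at 6 of the 16 and at 43.3% of all summits. AGATAA (11.9% of all summits), GTAAACA (3.11%) and CACGTG (4.98%), a palindrome that contains ACGTG on each strand, were at none of the 16. ACGTG was at 5 of the 16 and GCGTG at 4, against 15.8% and 12.5% of all summits. The median GC content around the summits was 43.1% for the 16 and 39.6% for the whole optimal list. Its bearing on these counts was not tested. From 250 bp upstream to 50 bp into each gene, ACGTG was found in 27.6% of 19973 protein-coding genes and TGATAAG in 9.19%. These stretches are longer than the 101 bp around a summit, so their shares are not comparable with those of summits. All elements were counted on both strands.

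At 2 of the promoter summits the 2 elements shared bases. The stretch ACGTGATAA, on the strand opposite to the gene and seen above as its other strand TTATCACGT, stood at chrV:10468443-10468451 under the proximal peak of egl-9 and at chrII:9160420-9160428 under the promoter peak of rhy-1. Its first 5 bases are ACGTG and its last 6 TGATAA. It was within 50 bp of 26 of all 5560 summits (0.468%) and of 12 flanking windows (0.216%). From 250 bp upstream to 50 bp into the gene, a longer stretch than that around a summit, 74 of 19973 genes held it (0.37%). The stretch was picked after these 2 summits were read, and both are among the 26, so its presence at them is no test. At sqrd-1 and cysl-2 the elements were apart. In sqrd-1, TGATAA was centred at -35.5 bp from the summit and ACGTG at 17 bp. In cysl-2, ACGTG was at -28 bp and TGATAAG at 10 bp.

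**Figure D3:**
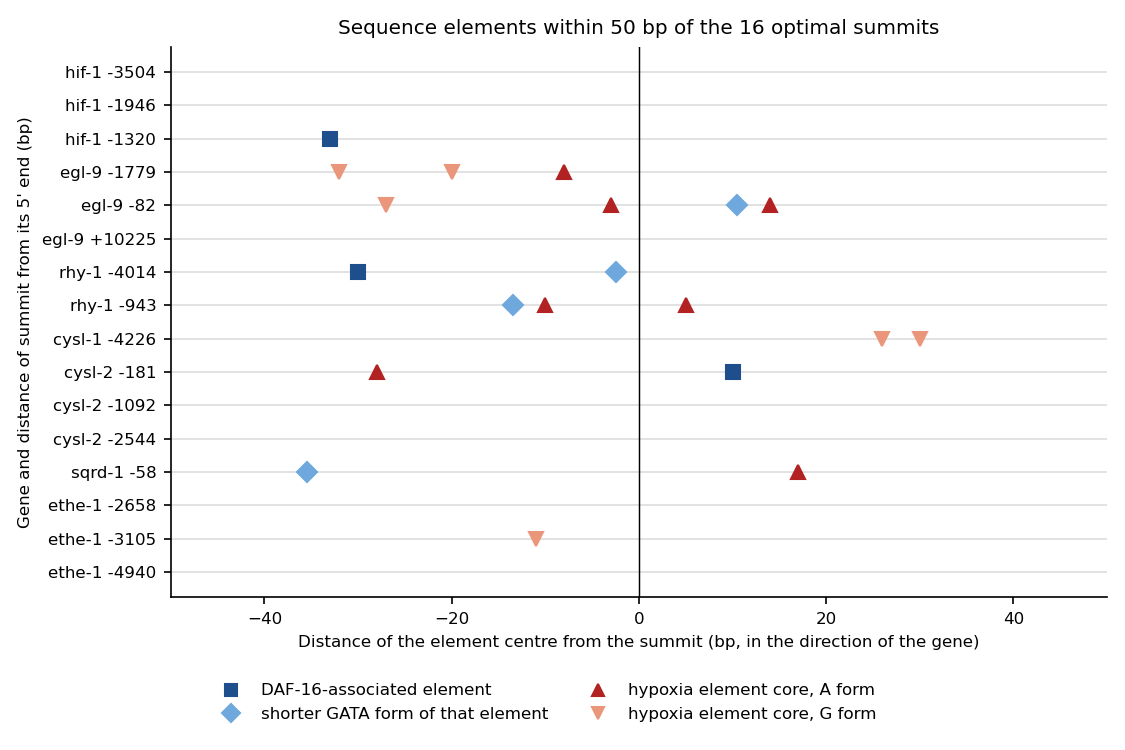
Position of sequence elements (symbols) relative to each of the 16 optimal summits (rows), in bp in the direction of the gene. Squares mark the DAF-16-associated element, diamonds its shorter form, and triangles the A and G forms of the hypoxia element core. The 4 promoter rows (egl-9 -82, rhy-1 -943, cysl-2 -181 and sqrd-1 -58) each hold a blue and a dark red symbol, and 7 rows hold none.

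Copies of the hypoxia core outside the peaks were common. Within 1000 bp upstream of the 5′ end, 7 of the 8 genes had ACGTG or GCGTG, all but hif-1, and so had 75.8% of all genes. In rhy-1 there were 6 copies of ACGTG, of which those at -953 and -938 bp lay under the promoter peak. The others, down to the overlapping copies at -106 and -105 bp, lay outside it. In vhl-1, cysl-1 and ethe-1 the promoter held 2, 1 and 2 copies of ACGTG, and the optimal summits nearest to those of cysl-1 and ethe-1 were 3350 and 2459 bp away.

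The remaining genes of the pathway were then read in the same way. Of 50 other genes in 4 lists that were found in the annotation, 15 had an optimal summit in the promoter (16.3% of all genes) and 37 had a summit in the window (40.2% of all genes). By list, of 14 genes known to be regulated through HIF-1, 8 had a promoter summit. Most of these are raised by HIF-1, while the ferritin genes ftn-1 and ftn-2 are lowered by it. Of 20 genes of sulfide and cysteine metabolism, 4 had one, of 11 other genes of oxygen or stress responses 2, and of 7 partners of HIF-1 and VHL-1 1. In the window the counts were 11 of the 14, 14 of the 20, 9 of the 11 and 4 of the 7, so the lists did not keep the same order, and no difference between lists was tested. The lists share cysl-3 and cdo-1, which had no promoter summit.

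The strongest promoter peak of these genes was that of smf-3, a metal transporter gene, at -80 bp with a signal of 127, rank 222, and ranks of 197 and 466 in the replicates. Next came fmo-2, a flavin monooxygenase gene, at -128 bp (102, rank 462; replicate ranks 366 and 659). The nuclear receptor gene nhr-57, widely used as a reporter of HIF-1 activity, had 2 promoter summits, the stronger at -228 bp (65.2, rank 1430; replicate ranks 1009 and 1233). The ferritin gene ftn-1 had a peak at -631 bp (68.5, rank 1294) and efk-1, an elongation factor kinase gene, at -518 bp (70.1, rank 1233). For efk-1 the replicates ranked the peak at 887 and 15169. F22B5.4, nit-1 (a nitrilase gene) and oac-54 completed the 8, with signals of 34.0, 38.6 and 79.3. The peak of F22B5.4 ranked 2559 in replicate 1 and 28919 in replicate 2, and that of nit-1 2740 and 9257. The peak of oac-54 is the one described above at -4014 bp from rhy-1.

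Among the sulfide and cysteine genes, cth-1, for a cystathionine gamma-lyase, had a promoter peak at -412 bp with a signal of 64.7. It ranked 1794 in replicate 1 and 885 in replicate 2. The promoter of cbs-1, for a cystathionine beta-synthase, had one at -410 bp (45.9), mpst-3, of the mercaptopyruvate sulfurtransferases, at 86 bp (49.4), and gss-1, for glutathione synthetase, at -382 bp (23.9, with no peak in replicate 2). The mpst-3 peak also lay in the window of mpst-2, at -2278 bp. Strong peaks in the windows but outside promoters were found at moc-1 (148, rank 124, at -3652 bp), mpst-1 (135, rank 180, beyond the 3′ end at 2889 bp) and cth-2 (110, rank 366, at -2377 bp). For the list genes it was not read whether another gene lay nearer to a window peak. The cysteine synthase relative cysl-3 had a peak at -1038 bp (101.0, rank 478), and ftn-2, a ferritin gene, at -1218 bp (156, rank 89). Both lay within 250 bp of the edge of the promoter.

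Of the partners, aha-1, which encodes the subunit that pairs with HIF-1, had a weak promoter peak at -210 bp (25.2, rank 5295) that overlapped no peak of replicate 2. Subunits of the ubiquitin ligase of VHL-1 had none, with the strongest window peaks at elc-1 (57.2, at -2653 bp) and cul-2 (51.9, beyond the 3′ end at 7025 bp). Among the other genes, nhr-49, a nuclear receptor gene of a hypoxia response separate from HIF-1, had a promoter peak at -404 bp (71.9, rank 1186) and blmp-1 one at -210 bp (41.1). Strong peaks outside promoters, all within the gene, were those of skn-1 (120, at 723 bp), daf-16 (120, at 1673 bp) and nhr-46 (108, at 1726 bp). Promoters here are those of the outermost 5′ end alone. With the 5′ ends of all transcripts, 19 other pathway genes had a promoter summit in place of 15. Which genes were added, and the share of all genes at that setting, are not given.

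ACGTG was within 50 bp of the strongest promoter summit of 7 of these 15 genes (46.7%, against 15.0% of all promoter summits), namely nhr-57, smf-3, ftn-1, efk-1, fmo-2, mpst-3 and gss-1. At efk-1 and fmo-2 it was part of CACGTG. The shorter GATA form TGATAA was at 9 of the 15 (60.0%, against 39.4% of all promoter summits), and at smf-3, ftn-1 and mpst-3 the full TGATAAG and ACGTG stood together. No share of all promoter summits that held both is given. The lists were made with results of these data known and the shares were not tested.

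**Figure D4:**
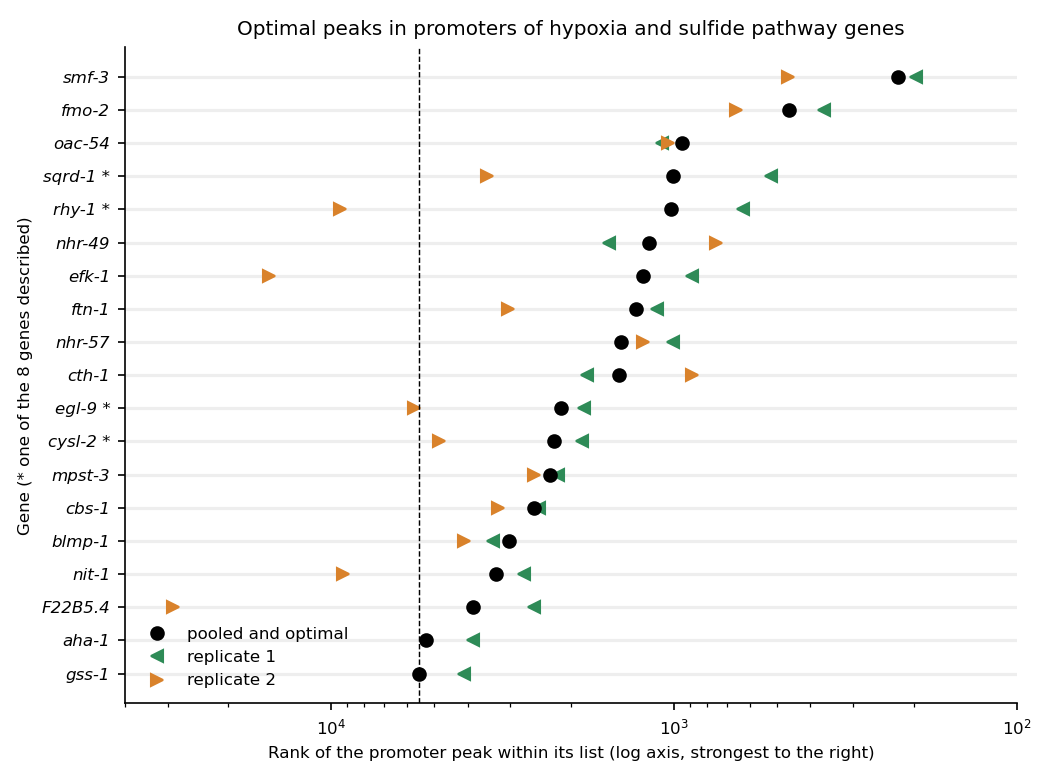
Rank of the promoter peak within the pooled list (black), the list of replicate 1 (green) and that of replicate 2 (orange), on a log axis with the strongest at the right, for the 19 pathway genes with an optimal promoter summit. Stars mark egl-9, rhy-1, cysl-2 and sqrd-1, and the dashed line marks rank 5560. Points missing for replicate 2 at aha-1 and gss-1 have no overlapping peak there.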

How the data were processed

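The data are narrowPeak lists that the authors deposited for ce11 from 2 replicates of 1 group. Column 7, the signal, is a score deposited by the authors with its scale not stated. Column 9, deposited by the authors as −log10 of q, was not used to rank peaks, and column 10 gives the summit. The caller, aligner and threshold were not given in the sources used here. GEO's labels name a control library, which was not used here. The ce10 lists were not used, since coordinates were not converted.

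Summits were placed in Ensembl 115 gene models of WBcel235, the assembly of ce11, and sequences came from RefSeq's copy. A gene's 5′ end is the outermost of its transcripts. A replicate peak matched an optimal peak if they had 1 bp or more in common, and of several the strongest was taken. Of the pathway list symbols, sqrd-2 and mpst-5 were not found. Named genes are the 8 genes, list genes with a promoter summit, the strongest other window peaks per list, up to 3, and the genes nearest to the 16 summits. The genes and lists were chosen with earlier results of these data known. With 1 group there was no test between conditions, and all counts are descriptions. Promoter, promoter edge and motif counts were checked on simulated data, and window counts of the optimal list against bedtools 2.31.1. Python 3.11.15, numpy 2.4.6, pandas 2.3.3 and matplotlib 3.10.9 were used.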

Additional observations from a re-analysis of the deposited data

How the results depend on the processing

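Without replicate 1 or without replicate 2, meaning the 5560 strongest peaks of the other replicate, the genes with a summit in the window stayed at 7 of 8 (lowest 7, highest 7). The summits in the windows then ranged from 12 to 18, and those with TGATAAG from 2 to 3. The genes with a promoter summit ranged from 3 to 5, and the other pathway genes with one from 13 to 16. Of all genes, 13.8% had a promoter summit with replicate 2 alone and 16.6% with replicate 1 alone. In replicate 2 the 3 promoters were not the same as above: hif-1 was among them, and egl-9 and rhy-1 were not. Within the strongest 1000 optimal peaks 4 genes had a window summit (9.73% of all genes), 4 summits remained and 1 of 4 held TGATAAG. No gene of the 8 had a promoter summit (0, with sqrd-1 and rhy-1 at ranks 1004 and 1022), and 3 other pathway genes had one. No share of all genes is given for promoters at this setting. With the strongest 50% of the list 10 summits remained, and all 7 genes (23.8% of all genes). The pooled list gave 55 summits, 5 of them with TGATAAG. It gave 7 genes and 39 other pathway genes a promoter summit, against 45.1% of all genes. Taking 2000 bp upstream to the 3′ end, or summits nearest to the gene itself, left 8 summits each. With the strongest peaks of each replicate 9 summits were shared. TGATAAG was at 1 summit within 25 bp and at 6 within 100 bp, and TGATAA was at 6. The other settings moved no count by over 1.5 times. No paired analysis was possible because there is 1 group. Depth is unknown, so a summit missing from a list is not shown to be absent.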

Other observations

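Peak width varied with rank. Of the 16 summits, 3 belonged to peaks under 150 bp wide, the distal peak of egl-9 (89 bp), that of rhy-1 at -4014 bp (143 bp) and that of cysl-1 (116 bp), while the other 13 were 340 bp wide. For these 3 the summits of both replicates lay within 18 bp of the optimal summit. Among the 13 wider peaks this held only for that of ethe-1 at -3105 bp (0 and 7 bp). In the whole optimal list 427 peaks (7.68%) were under 150 bp wide, and 95.6% of these were among the strongest 5560 of both replicates, against 57.9% of the 4580 peaks of 340 bp. The 553 peaks of other widths stood higher still, with 98.6% among the strongest of both. The median ranks were 863 for the peaks under 150 bp, 3267 for those of 340 bp and 285 for the others, and none of the 16 was among the others.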
